A study of Mus musculus with 24 samples.

Results

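The synaptic vesicle and postsynaptic density genes described here are 33 genes of the chemical synapse, taken from the hippocampal count table by their symbols. They comprise 21 genes whose products act in the presynaptic terminal and 12 whose products act on the postsynaptic side, in the receiving cell. All 33 were among the 24058 symbols of the table, and all 33 were among the 16118 genes that passed the filter on low counts.

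At a synapse, synaptic vesicles are filled with transmitter, held in reserve by synapsins, brought to the active zone by scaffold proteins such as RIM, Bassoon and Piccolo, and primed by Munc13. A complex of syntaxin, SNAP-25 and synaptobrevin then fuses the vesicle with the plasma membrane when the calcium sensor synaptotagmin binds calcium. Presynaptic neurexins hold the terminal to postsynaptic neuroligins, and behind these lies the postsynaptic density, a layer of PSD-95, SHANK and Homer scaffolds with the kinase CaMKII. In the hippocampus most of these transcripts come from excitatory pyramidal and granule neurons, and loss of synapses is a well known feature of tauopathy models.

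The libraries were bulk RNA sequencing of hippocampal tissue from PS19 mice, in which the mouse prion promoter drives a human tau transgene with the P301S change, and every group carried that transgene. The tested alleles were human TREM2 with the R47H change or the common (WT) human TREM2, each labelled as 1 human allele over a + allele. TREM2 is a receptor of microglia, not of neurons, and R47H is linked to risk of Alzheimer's disease. Titles with the prefix LG72 covered 5 R47H-TREM2/+ females and 3 Trem2+/+ females, and 5 R47H-TREM2/+ males and 2 Trem2+/+ males. The prefix LG73 holds 6 females with WT-TREM2/+ and 3 females with Trem2+/+. Trem2+/+ stands for mouse Trem2 without a human allele. The labels give neither the age of the mice nor a meaning for the prefixes. No prefix holds both human alleles. Libraries are numbered below within their group by accession. The labels do not state that each library of a group is a separate animal, and the p-values thus reflect only how these libraries vary.

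Total counts ran from 13261478 to 17442293 in R47H-TREM2 females and from 17545680 to 23807390 in their LG72 controls, so that every R47H-TREM2 female was shallower than every Trem2+/+ female of that prefix. The other 4 groups ran from 15169193 to 22991489. Trem2 itself had 7.14 to 29.7 CPM in R47H-TREM2 females and 5.81 to 26.4 CPM in LG72 Trem2+/+ females, and the sources used here do not say whether reads of the human allele were counted under that symbol. All 18 neuronal and all 12 hippocampal markers were detected in every library. However, R47H-TREM2 female 1 and Trem2+/+ female 3 of LG72 were low in the hippocampal list (mean centred log2 CPM -1.47 and -1.25). In 6 libraries Prl or Omp exceeded 50 CPM or Adora2a exceeded 30 CPM: R47H-TREM2 female 5 had 979 CPM of the pituitary hormone gene Prl, and Trem2+/+ female 1 of LG72 had 420 CPM of the olfactory gene Omp. Trem2+/+ female 3 of LG73 had 58.7 CPM of Prl, and Trem2+/+ female 3 of LG72 and WT-TREM2 females 2 and 5 had 53.6, 57.8 and 33.5 CPM of Adora2a, a marker of striatal neurons. Without these 6 libraries, 4 R47H-TREM2 females stood against 1 control and 4 WT-TREM2 females against 2, and such values are given below beside results of females. The 1 control left in LG72 was Trem2+/+ female 2, so those values of R47H-TREM2 females rest on that library. Other libraries were not free of RNA from outside the hippocampus: the liver transcript Alb exceeded 30 CPM in 14 of the 24, and choroid plexus markers summed to up to 6052 CPM.

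Levels of different genes were compared per kilobase of transcript (RPKM, from CPM and the longest annotated transcript). Snap25, a plasma membrane SNARE, was the most abundant member at 1071 RPKM on average over the 24 libraries, followed by the vesicle membrane protein Syp at 773, the kinase subunit Camk2a at 722, the vesicular glutamate transporter Slc17a7 at 659 and the vesicle SNARE Vamp2 at 454 RPKM. The adhesion genes Nlgn1 and Nlgn3 and the active zone giant Pclo were lowest, at 6.92, 8.48 and 8.25 RPKM. The median was 100.4 RPKM for presynaptic members and 57.3 RPKM for postsynaptic members, against 5.77 RPKM for the genes tested that had a transcript length. Postsynaptic transcripts were also longer, with a median of 6749.5 bases against 3854 bases for presynaptic ones and 3073 bases for genes tested.

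The members did not vary alike between libraries. The SHANK scaffolds and the active zone gene Rims1 varied most: the SD of log2 CPM over the 24 libraries was 0.68 for Shank1, 0.65 for Shank3, 0.62 for Rims1 and 0.57 for Shank2. The fusion genes Vamp2 and Cplx1 had SDs of 0.19 and 0.24 and the scaffold gene Dlgap1 one of 0.25, whereas the fusion genes Stx1a and Syt1 had 0.56 and 0.52. The heatmap of all members shows where these deviations lie.

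**Figure D1:**
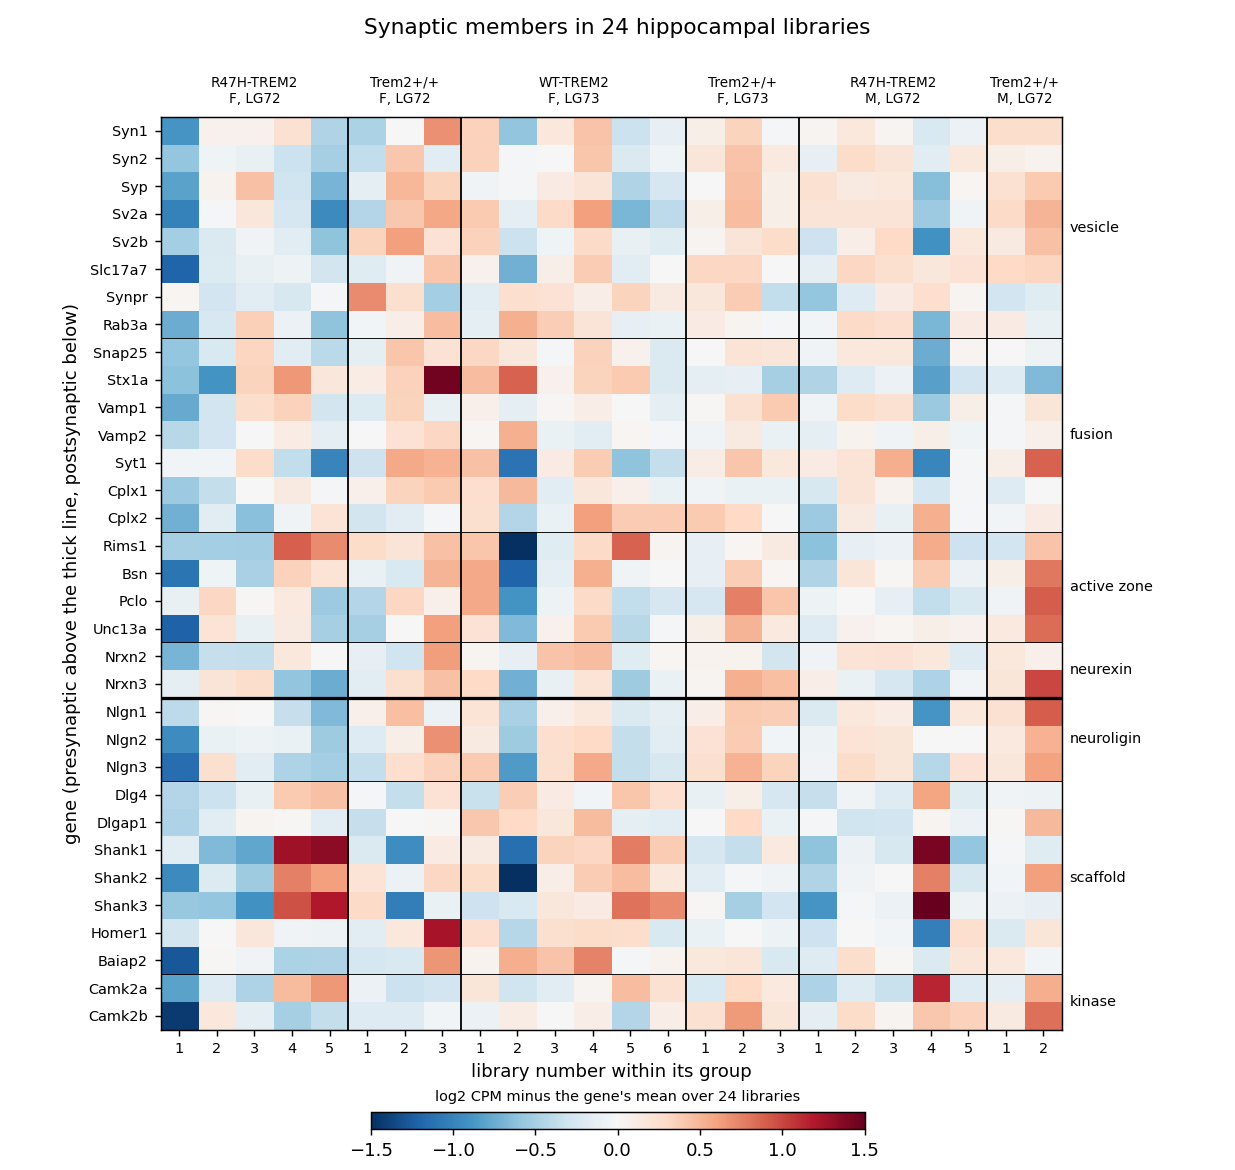
Each row is a member and each column a library, coloured by log2 CPM minus the gene's mean over the 24 libraries, with presynaptic members above the thick line and postsynaptic members below it. R47H-TREM2 female 1 was low in most members, and R47H-TREM2 females 4 and 5 and R47H-TREM2 male 4 were high in Shank1, Shank2 and Shank3.

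The first comparison asked how the R47H allele bears on these genes in LG72 females. Presynaptic transcripts stood lower with R47H-TREM2, although no single member passed the test. All 21 presynaptic members had a log2 fold change under 0 against Trem2+/+, with a median of -0.34, and 8 of 12 postsynaptic members did, with a median of -0.15. The postsynaptic median was -0.00 without R47H-TREM2 female 1 and -0.26 without R47H-TREM2 female 2. Of all 33 members 29 were lower (87.9%), against 49.5% of the 16118 genes tested lower and 50.5% higher, with a median over all genes of 0.00. At an adjusted p under 0.05, edgeR called 0 members and 0 genes in all (0%). At that threshold DESeq2 called 0 members, with a smallest adjusted p of 0.0767 among them. Of the 16118 genes tested, DESeq2 called 140 as higher and 40 as lower. At an unadjusted p under 0.05, edgeR gave 5 members as lower (15.2%) and 0 as higher, against 5.35% and 8.68% of genes tested (14% in either direction). In bulk tissue, fewer cells of a type and less RNA per cell cannot be told apart.

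Other markers differed between the same groups. In this comparison, 13 of 18 neuronal markers were lower (median log2 fold change -0.27), with summed levels of 6996 to 11143 CPM in R47H-TREM2 females and 8675 to 12206 CPM in Trem2+/+ females. Hippocampal markers went the other way, with 7 of 12 higher (median 0.14). Their sums were 340 to 1002 CPM in R47H-TREM2 females and 813 to 874 CPM in Trem2+/+ females. All 12 microglial markers were higher (median 0.95), with sums of 503 to 1558.5 CPM in R47H-TREM2 females and 434 to 653 CPM in Trem2+/+ females. All 10 astrocyte markers were higher (median 0.43), with sums of 10648 to 24898 CPM in R47H-TREM2 females and 6817 to 11856 CPM in Trem2+/+ females. So were all 10 oligodendrocyte markers (median 0.80), with sums of 8579 to 19228 CPM in R47H-TREM2 females and 5219 to 6606 CPM in Trem2+/+ females. All 10 choroid plexus markers were higher (median 1.73; 644.5 to 6052 CPM in R47H-TREM2 females, 337 to 1275 CPM in Trem2+/+ females), and all 8 tested striatal markers were lower (median -1.48; 183 to 271 CPM in R47H-TREM2 females, 259.9 to 968 CPM in Trem2+/+ females). None of these markers was at 0 in any library. The part of cell makeup, of striatal tissue and of depth in the synaptic values was not tested.

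Among vesicle genes, all 8 were lower in R47H-TREM2 females (median log2 fold change -0.40). Syp, a tetraspan protein of the vesicle membrane and the most abundant of them in CPM, had 1117, 2019.8, 2649, 1589 and 1202 CPM in R47H-TREM2 females, against 1768, 2746 and 2450.1 CPM in Trem2+/+ females (log2 fold change -0.44, SE 0.24, adjusted p = 0.419). The R47H-TREM2 libraries spanned from below the controls to within their range. Sv2b (chr7:75114894-75309262, minus strand), a glycoprotein that takes part in vesicle priming, had 366, 449.9, 503, 465 and 342 CPM in R47H-TREM2 females, against 659.7, 803 and 607 CPM in Trem2+/+ females (log2 fold change -0.70, SE 0.22, adjusted p = 0.193). Every R47H-TREM2 library lay below every control library, and Sv2b was the only member with such a separation here (3.03%, against 2.41% of genes tested lower and 3.59% higher without overlap). Its unadjusted p of 0.00349 was the smallest of the 33 members. Synpr, the synaptoporin of mossy fibre terminals, had 158, 128, 139.8, 131.95 and 153 CPM in R47H-TREM2 females, against 254, 184 and 109 CPM in Trem2+/+ females (log2 fold change -0.36, SE 0.22, adjusted p = 0.447), and Trem2+/+ female 3 was the lowest of all 8 libraries. Sv2a, the binding protein of the antiepileptic drug levetiracetam, stood at a log2 fold change of -0.58 and the glutamate transporter Slc17a7 at -0.40. Without the 6 libraries with other tissue the log2 fold change was -0.58 for Syp, -0.85 for Sv2b, -0.41 for Synpr, -0.62 for Sv2a and -0.27 for Slc17a7. The only control left there, Trem2+/+ female 2, was the highest of the controls in Syp and Sv2b.

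The fusion machinery was lower in 7 of 7 members (median log2 fold change -0.36). Snap25 had 1490.0, 1892, 2784, 1993 and 1688 CPM in R47H-TREM2 females, against 2031, 2965 and 2583 CPM in Trem2+/+ females (log2 fold change -0.36, SE 0.21, adjusted p = 0.434), and R47H-TREM2 female 3 lay within the controls' range. Cplx1, a complexin that clamps and promotes fusion, had 294, 335, 429, 471 and 425 CPM in R47H-TREM2 females, against 452, 541 and 565 CPM in Trem2+/+ females (log2 fold change -0.41, SE 0.17, adjusted p = 0.301). Only R47H-TREM2 female 4 reached the range of the controls. Stx1a, the plasma membrane syntaxin, had 50.8, 41.6, 98.3, 122 and 87.2 CPM in R47H-TREM2 females, against 84.1, 98.9 and 213 CPM in Trem2+/+ females (log2 fold change -0.72, SE 0.31, adjusted p = 0.301). R47H-TREM2 females 1 and 2 were the lowest of the 8 libraries and Trem2+/+ female 3, which carried striatal RNA, the highest, with the other libraries of both groups between 84.1 and 122 CPM. The Stx1a log2 fold change was -0.19 without Trem2+/+ female 3 and -0.34 without the 6 libraries. The calcium sensor Syt1 stood at -0.49, and Cplx2 was nearest to 0 at -0.08. Without the 6 libraries Snap25 stood at -0.54, Cplx1 at -0.50 and Syt1 at -0.60. The only control left there, Trem2+/+ female 2, was the highest of the controls in Snap25.

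Stx1a and Cplx1 were the members with the smallest p in both differences between comparisons given further below, so their promoters are shown, from 250 bases before to 50 after the annotated start, as listed by RefSeq for GRCm38.p6. Stx1a lies on the plus strand (promoter chr5:135023232-135023531) and Cplx1 on the minus strand (promoter chr5:108549978-108550277). Both are written 5′ to 3′ on the gene's strand, with capitals marking matches to the GC box GGGCGG on either strand.
Stx1a: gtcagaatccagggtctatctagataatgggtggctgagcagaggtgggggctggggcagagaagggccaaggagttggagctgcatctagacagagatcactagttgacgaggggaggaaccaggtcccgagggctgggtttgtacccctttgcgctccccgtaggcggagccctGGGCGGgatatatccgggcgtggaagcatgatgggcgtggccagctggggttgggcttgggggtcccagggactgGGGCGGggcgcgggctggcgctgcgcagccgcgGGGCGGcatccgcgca
Cplx1: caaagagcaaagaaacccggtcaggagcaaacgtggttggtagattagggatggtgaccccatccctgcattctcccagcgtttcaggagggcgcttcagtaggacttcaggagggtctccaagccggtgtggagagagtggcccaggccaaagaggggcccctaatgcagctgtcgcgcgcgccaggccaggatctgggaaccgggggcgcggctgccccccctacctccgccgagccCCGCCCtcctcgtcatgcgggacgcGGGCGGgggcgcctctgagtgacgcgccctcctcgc
Stx1a held 3 GC boxes and Cplx1 held 2. Of the 26 members with a promoter in the table, 20 (76.9%) held at least 1 GC box, against 64.9% of 11993 genes tested that had a promoter there. The match says only that these letters occur in these windows.

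The 4 active zone genes were all lower in R47H-TREM2 females as well, by less (median log2 fold change -0.18). Bsn, the Bassoon scaffold, had 138, 283, 210.1, 377 and 339 CPM in R47H-TREM2 females, against 275, 252 and 420.1 CPM in Trem2+/+ females (log2 fold change -0.23, SE 0.32, adjusted p = 0.762). Pclo, the related Piccolo, had 147, 197, 160.4, 176 and 109 CPM in R47H-TREM2 females, against 117, 197 and 167 CPM in Trem2+/+ females (log2 fold change -0.02, SE 0.28, adjusted p = 0.980). The groups overlapped in both. The 2 neurexins, presynaptic adhesion proteins, stood at -0.34 for Nrxn2 and -0.34 for Nrxn3. Nrxn2 had 286, 366, 363, 518 and 467 CPM in R47H-TREM2 females, against 425, 376 and 715 CPM in Trem2+/+ females (adjusted p = 0.474). Nrxn3 had 146, 185, 194, 107 and 95.959 CPM in R47H-TREM2 females, against 144.2, 190.0 and 219 CPM in Trem2+/+ females (adjusted p = 0.538), and R47H-TREM2 females 4 and 5 were the lowest 2 of these 8 libraries. Without Trem2+/+ female 3 the log2 fold change was 0.03 for Bsn and -0.00 for Nrxn2. Without the 6 libraries it was 0.00 for Bsn, -0.21 for Pclo, 0.03 for Nrxn2 and -0.27 for Nrxn3.

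Postsynaptic members did not share a direction, and their roles overlapped, with log2 fold changes of the scaffolds from -0.58 to 0.77. The 3 neuroligins, the partners of neurexins, were all lower (median log2 fold change -0.45). Nlgn2, which acts mainly at inhibitory synapses, had 155, 279, 284, 279.7 and 208 CPM in R47H-TREM2 females, against 262, 319 and 481 CPM in Trem2+/+ females (log2 fold change -0.55, SE 0.22, adjusted p = 0.286). R47H-TREM2 females 1 and 5 lay below all controls and the other 3 within their range, and without Trem2+/+ female 3 the log2 fold change was -0.27. Nlgn1, the neuroligin of excitatory synapses, had 60.2, 79.8, 78.7, 62.3 and 50.1 CPM in R47H-TREM2 females, against 83.0, 108 and 74.4 CPM in Trem2+/+ females (log2 fold change -0.42, SE 0.22, adjusted p = 0.398). Here R47H-TREM2 females 2 and 3 overlapped with the controls. Nlgn2 stood at -0.35 and Nlgn1 at -0.62 without the 6 libraries, where the only control left, Trem2+/+ female 2, was the highest of the controls in Nlgn1.

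The 7 scaffolds had a median log2 fold change of -0.03, with 4 lower and 3 higher. Dlg4, which encodes PSD-95, had 764, 826, 955, 1354 and 1403 CPM in R47H-TREM2 females, against 1014, 806 and 1202 CPM in Trem2+/+ females (log2 fold change 0.07, SE 0.23, adjusted p = 0.903). R47H-TREM2 females 4 and 5 were the highest 2 of the 8 libraries. Shank1 (chr7:44310253-44360572, plus strand) had 660.4, 468, 431, 1786 and 1873 CPM in R47H-TREM2 females, against 635, 389.7 and 809 CPM in Trem2+/+ females (log2 fold change 0.77, SE 0.50, adjusted p = 0.480). Shank3 had 262, 260.1, 207, 752 and 893 CPM in R47H-TREM2 females, against 476, 189 and 364 CPM in Trem2+/+ females (log2 fold change 0.47, SE 0.48, adjusted p = 0.659). For both, R47H-TREM2 females 4 and 5 lay above all controls and the other 3 within the controls' range. Homer1, which links SHANK to glutamate receptors, stood at -0.58 (SE 0.26, adjusted p = 0.319). Baiap2, which encodes the actin regulator IRSp53, had 89.4, 218, 207, 155 and 156 CPM in R47H-TREM2 females, against 179, 183 and 341 CPM in Trem2+/+ females (log2 fold change -0.51, SE 0.25, adjusted p = 0.361), and Trem2+/+ female 3 alone lay above the R47H-TREM2 range. Without that library the log2 fold change was -0.14 for Baiap2 and -0.05 for Homer1. Without the 6 libraries it was -0.13 for Baiap2, -0.19 for Homer1, 0.27 for Dlg4, 1.10 for Shank1 and 0.97 for Shank3. The only control left there, Trem2+/+ female 2, was the lowest of the controls in Dlg4, Shank1 and Shank3.

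The CaMKII subunits differed in sign. Camk2a, the alpha subunit, had 1964, 2987, 2494, 4777 and 5363 CPM in R47H-TREM2 females, against 3220.4, 2748 and 2798 CPM in Trem2+/+ females (log2 fold change 0.27, SE 0.33, adjusted p = 0.726), with R47H-TREM2 females 4 and 5 highest and female 1 lowest. Camk2b, the beta subunit, had 494, 1500.1, 1215, 951 and 1047 CPM in R47H-TREM2 females, against 1176, 1168 and 1301 CPM in Trem2+/+ females (log2 fold change -0.22, SE 0.24, adjusted p = 0.684), and R47H-TREM2 female 1 lay far below the rest. Camk2a stood at 0.15 and Camk2b at -0.16 without the 6 libraries. The plot of single members shows these libraries.

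**Figure D2:**
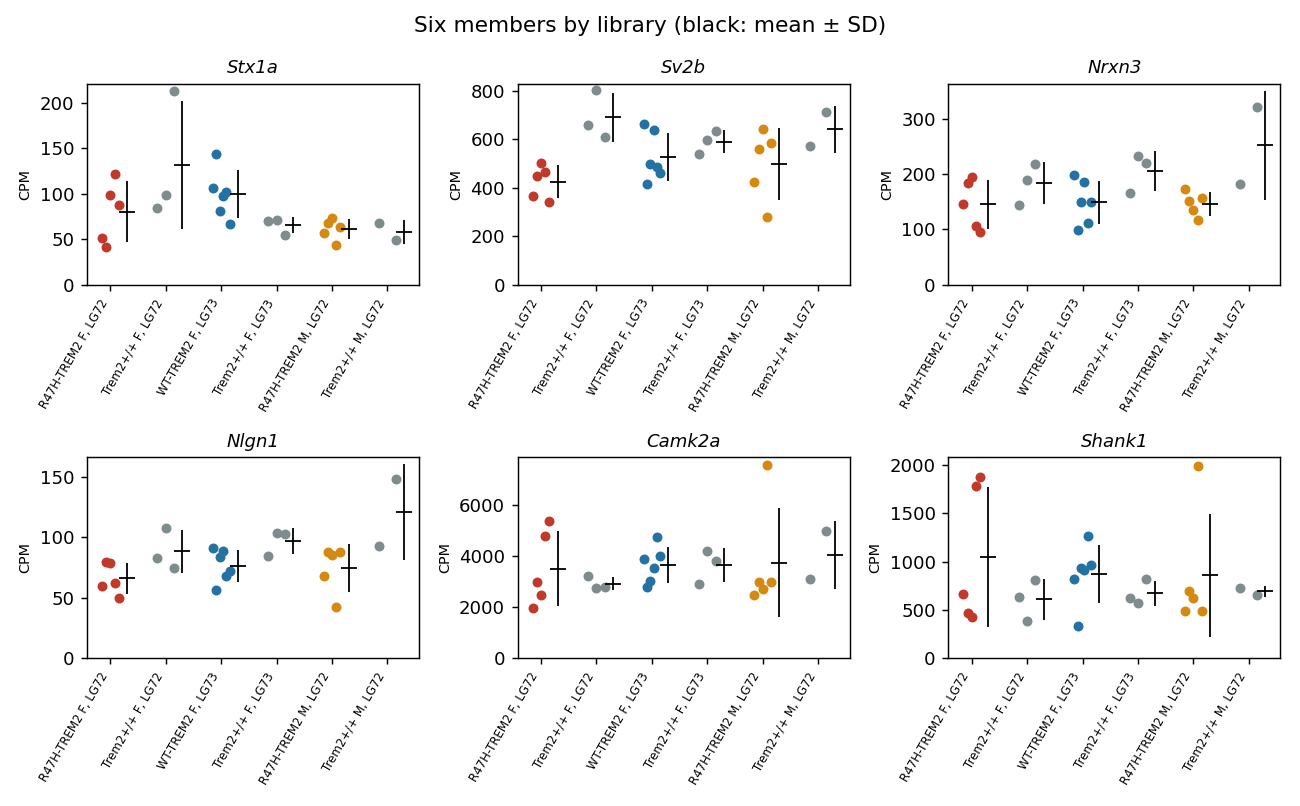
CPM of 6 members in each library by group (points), with the group mean and SD in black. Sv2b lay lower in every R47H-TREM2 female than in any LG72 Trem2+/+ female, whereas Shank1 was highest in 2 R47H-TREM2 females and 1 R47H-TREM2 male.

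The presynaptic median of R47H-TREM2 females stayed under 0 in every fit tried, but its size depended on single libraries and on covariates. The presynaptic median log2 fold change was -0.53 without Trem2+/+ female 1 and -0.20 without Trem2+/+ female 3, where 17 of 21 presynaptic members were lower. Without the 6 libraries with RNA of other tissue, 3 of which are in this comparison, 27 of 33 members were lower with a median of -0.23 (all genes 0.06), with 4 R47H-TREM2 females against 1 control. With each library's slopes of expression on transcript length and on transcript GC content as covariates, 21 of 33 members and 15 of 21 presynaptic members were lower, and the median over the 33 was -0.13.

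Synaptic genes outside the module showed a similar balance, but they were read in the same libraries and are no independent support. Of 35 other presynaptic genes 29 were lower in R47H-TREM2 females (82.9%, median log2 fold change -0.29), and of 28 other postsynaptic genes 20 were (71.4%, median -0.12), against 49.5% of genes tested. At an unadjusted p under 0.05, 6 of the presynaptic genes (17.1%) and 1 of the postsynaptic genes (3.57%) were lower, against 5.35% of genes tested, and 0 were called. Cadps2, which promotes dense core vesicle release, had 89.9 ± 20.1 CPM in R47H-TREM2 females and 151 ± 20.9 CPM in Trem2+/+ females (SD, n = 5 and 3), with a log2 fold change of -0.74 (SE 0.21) and an adjusted p of 0.177 in edgeR. Syngr1, a vesicle membrane protein, had 489 ± 109.7 CPM in R47H-TREM2 females and 740 ± 148 CPM in Trem2+/+ females (log2 fold change -0.60, SE 0.20, adjusted p = 0.224).

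The next comparison set the common human TREM2 allele against Trem2+/+ in LG73 females, and the members showed no common direction. With WT-TREM2, 18 members were lower and 15 higher (54.5% lower, against 45.4% of genes tested lower and 54.6% higher), and their median log2 fold change was -0.01 (all genes 0.04). Presynaptic members were lower in 14 of 21 (median -0.11) and postsynaptic members higher in 8 of 12 (median 0.13). EdgeR called 0 members (0% of genes tested), and 0 members had an unadjusted p under 0.05 (3.91% of genes tested, 2.28% higher and 1.63% lower). DESeq2 called 0 members and 0 genes too. Of other presynaptic genes 20 of 35 were lower (median -0.10), and of other postsynaptic genes 16 of 28 were higher (median 0.03). Choroid plexus markers were lower in 10 of 10 (median log2 fold change -2.25), with summed levels of 181 to 1349 CPM in WT-TREM2 females and 1157 to 3082 CPM in Trem2+/+ females. Striatal markers were higher in 8 of 8 (median 1.59), with sums of 194 to 1159.7 CPM in WT-TREM2 females and 179 to 237 CPM in Trem2+/+ females. Microglial markers were higher in 11 of 12 (median 0.14), with sums of 386 to 1349.5 CPM in WT-TREM2 females and 441 to 863 CPM in Trem2+/+ females. The neuronal list had a median of 0.05, and hippocampal markers were lower in 8 of 12 (median -0.21). The part of these tissues and cells in the synaptic values was not tested.

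Of the release genes, Stx1a had a lowest of 66.7, a median of 99.8 and a highest of 143.74 CPM in WT-TREM2 females, against 69.976, 71.2 and 54.9 CPM in Trem2+/+ females (log2 fold change 0.61, SE 0.31, adjusted p = 0.860). The highest library was WT-TREM2 female 2, which carried striatal RNA, and only WT-TREM2 female 6 lay within the controls' range. With all 6 Trem2+/+ females of both prefixes as controls the log2 fold change was 0.01, and without the libraries with other tissue it was 0.32. Cplx1 had a lowest of 381, a median of 469 and a highest of 603 CPM in WT-TREM2 females, against 415, 399.7 and 403 CPM in Trem2+/+ females (log2 fold change 0.22, SE 0.17, adjusted p = 0.860). Snap25 had a lowest of 1909, a median of 2416 and a highest of 2818 CPM in WT-TREM2 females, against 2243, 2569 and 2521 CPM in Trem2+/+ females (log2 fold change -0.01, SE 0.20, adjusted p = 0.988). Both genes overlapped between the groups.

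Vesicle genes stood at a median log2 fold change of -0.15, with 6 of 8 lower. Syp had a lowest of 1429, a median of 1895 and a highest of 2227 CPM in WT-TREM2 females, against 1959.5, 2652 and 2068 CPM in Trem2+/+ females (log2 fold change -0.25, SE 0.24, adjusted p = 0.860). Sv2b had a lowest of 417, a median of 491 and a highest of 663 CPM in WT-TREM2 females, against 539, 597 and 632 CPM in Trem2+/+ females (log2 fold change -0.16, SE 0.21, adjusted p = 0.878). Synpr had a lowest of 138, a median of 176 and a highest of 196 CPM in WT-TREM2 females, against 176, 203 and 121 CPM in Trem2+/+ females (log2 fold change 0.05, SE 0.21, adjusted p = 0.959). The groups overlapped in all 3 genes.

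Nrxn3 had a lowest of 97.992, a median of 149.6 and a highest of 199 CPM in WT-TREM2 females, against 165, 232 and 219 CPM in Trem2+/+ females (log2 fold change -0.47, SE 0.24, adjusted p = 0.860). WT-TREM2 females 2 and 5 were lowest, and without the libraries with other tissue the log2 fold change was -0.22. On the same terms it was -0.24 for Syp, -0.01 for Sv2b, -0.22 for Synpr, 0.12 for Cplx1 and 0.01 for Snap25. Nrxn2 had a lowest of 409, a median of 475 and a highest of 642 CPM in WT-TREM2 females, against 481, 479 and 382 CPM in Trem2+/+ females (log2 fold change 0.18, SE 0.21, adjusted p = 0.870). Active zone genes were led by the lowest library, WT-TREM2 female 2, in which this class had a mean centred log2 CPM of -1.20. Bsn had a lowest of 128, a median of 291 and a highest of 439 CPM in WT-TREM2 females, against 272, 382 and 302 CPM in Trem2+/+ females (log2 fold change -0.05, SE 0.31, adjusted p = 0.972). Pclo had a lowest of 85.4, a median of 143 and a highest of 236 CPM in WT-TREM2 females, against 134, 269 and 213 CPM in Trem2+/+ females (log2 fold change -0.41, SE 0.27, adjusted p = 0.860).

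On the postsynaptic side the 7 scaffolds were all higher with WT-TREM2 (median log2 fold change 0.24), and the 3 neuroligins all lower (median -0.33). Dlg4 had a lowest of 818, a median of 1177 and a highest of 1382 CPM in WT-TREM2 females, against 958, 1094 and 866 CPM in Trem2+/+ females (log2 fold change 0.24, SE 0.23, adjusted p = 0.860). Baiap2 had a lowest of 212, a median of 256 and a highest of 361 CPM in WT-TREM2 females, against 241, 244 and 184 CPM in Trem2+/+ females (log2 fold change 0.28, SE 0.25, adjusted p = 0.860). The groups overlapped in both scaffolds. Nlgn2 had a lowest of 207, a median of 299 and a highest of 368 CPM in WT-TREM2 females, against 348, 391 and 291 CPM in Trem2+/+ females (log2 fold change -0.22, SE 0.22, adjusted p = 0.860). Nlgn1 had a lowest of 56.2, a median of 77.8 and a highest of 91.0 CPM in WT-TREM2 females, against 84.5, 104 and 102 CPM in Trem2+/+ females (log2 fold change -0.34, SE 0.22, adjusted p = 0.860). WT-TREM2 females overlapped with the controls in both neuroligins. Without the libraries with other tissue the log2 fold change was 0.02 for Dlg4, 0.17 for Baiap2, -0.17 for Nlgn2 and -0.17 for Nlgn1. Camk2a had a lowest of 2794, a median of 3707 and a highest of 4737 CPM in WT-TREM2 females, against 2924, 4217 and 3804 CPM in Trem2+/+ females (log2 fold change 0.01, SE 0.32, adjusted p = 0.995). Camk2b had a lowest of 986, a median of 1384 and a highest of 1450.3 CPM in WT-TREM2 females, against 1570.4, 2089 and 1520.2 CPM in Trem2+/+ females (log2 fold change -0.39, SE 0.23, adjusted p = 0.860), and it was the only member whose groups were apart (3.03% of members, against 1.45% of genes tested lower and 1.37% higher without overlap). Outside the module, the active zone gene Ppfia2 had 126.8 ± 36.1 CPM in WT-TREM2 females and 184 ± 45.5 CPM in Trem2+/+ females (SD, n = 6 and 3, log2 fold change -0.54, edgeR adjusted p = 0.860). The postsynaptic scaffold gene Cnksr2 had 179 ± 55.7 CPM in WT-TREM2 females and 263 ± 52.4 CPM in Trem2+/+ females (log2 fold change -0.56, edgeR adjusted p = 0.860).

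The third comparison asked about the R47H allele in LG72 males, where 5 R47H-TREM2 libraries stood against only 2 controls. With R47H-TREM2, 25 of 33 members were lower (75.8%, against 47% of genes tested lower and 53% higher), and their median log2 fold change was -0.16 (all genes 0.03). Presynaptic members were lower in 16 of 21 (median -0.15) and postsynaptic members in 9 of 12 (median -0.21). EdgeR and DESeq2 each called 0 members, while edgeR called 0% of genes tested and DESeq2 called 3 of 16118, all lower. In edgeR 3 members had an unadjusted p under 0.05, all lower (9.09%, against 3.5% of genes tested lower, 2.67% higher and 6.17% in either direction). In 6 members every R47H-TREM2 male lay below both controls (18.2%, against 4.95% of genes tested lower and 6.38% higher without overlap). These were Nrxn3, Nlgn1, Unc13a, Sv2a, Syp and Syn1. Neuronal markers were lower in 9 of 18 (median 0.01) and microglial markers in 9 of 12 (median -0.30), while choroid plexus markers were higher in 10 of 10 (median 2.66), with summed levels of 262 to 4448 CPM in R47H-TREM2 males and 381 to 439.8 CPM in Trem2+/+ males. Microglial sums were 590.0 to 1137 CPM in R47H-TREM2 males and 1086 to 1099 CPM in Trem2+/+ males. Astrocyte markers were lower in 8 of 10 (median -0.24), with sums of 7522 to 13840 CPM in R47H-TREM2 males and 10225 to 16485 CPM in Trem2+/+ males. Oligodendrocyte markers were higher in 9 of 10 (median 0.44), with sums of 5776 to 15673 CPM in R47H-TREM2 males and 4908 to 6838 CPM in Trem2+/+ males. Hippocampal markers were lower in 9 of 12 (median -0.13). The part of these cell types and of choroid plexus RNA in the synaptic values was not tested.

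The members with the smallest p in males were long transcripts of adhesion and the active zone. Nrxn3 (chr12:88722876-90334935, plus strand) had 173, 151, 135, 116 and 156 CPM in R47H-TREM2 males, against 182 and 322 CPM in Trem2+/+ males (log2 fold change -0.78, SE 0.28, adjusted p = 0.779). Nlgn1 (chr3:25426215-26332460, minus strand) had 68.0, 88.3, 85.5, 42.9 and 88.3 CPM in R47H-TREM2 males, against 92.7 and 149 CPM in Trem2+/+ males (log2 fold change -0.69, SE 0.25, adjusted p = 0.779). Pclo had 151, 158, 146, 123.61 and 136.25 CPM in R47H-TREM2 males, against 153 and 299 CPM in Trem2+/+ males (log2 fold change -0.66, SE 0.31, adjusted p = 0.779). In all 3 the highest library was Trem2+/+ male 2, and the other control lay near or just above the highest R47H-TREM2 males. Without Trem2+/+ male 2 the log2 fold changes were -0.32 for Nrxn3, -0.32 for Nlgn1 and -0.10 for Pclo. Without Trem2+/+ male 1 they were -1.13, -0.99 and -1.06. The postsynaptic median was 0.05 without Trem2+/+ male 2 and -0.43 without Trem2+/+ male 1.

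Among the other release genes of males, Syp had 2278, 2133, 2169, 1256 and 1983 CPM in R47H-TREM2 males, against 2279.6 and 2565 CPM in Trem2+/+ males (log2 fold change -0.30, SE 0.28, adjusted p = 0.820). R47H-TREM2 male 4 was far below the rest, and the other 4 lay below both controls, male 1 only just. Sv2b had 422, 559, 643, 279 and 585 CPM in R47H-TREM2 males, against 572 and 710.2 CPM in Trem2+/+ males (log2 fold change -0.37, SE 0.25, adjusted p = 0.788). Synpr had 104, 135.69, 169.6, 186 and 160.1 CPM in R47H-TREM2 males, against 128 and 138 CPM in Trem2+/+ males (log2 fold change 0.19, SE 0.25, adjusted p = 0.881). These 2 genes overlapped between the groups. Snap25 had 2142, 2476, 2492, 1332 and 2296 CPM in R47H-TREM2 males, against 2232 and 2118 CPM in Trem2+/+ males (log2 fold change -0.02, SE 0.24, adjusted p = 0.989). Stx1a had 56.8, 68.0, 73.3, 44.0 and 63.6 CPM in R47H-TREM2 males, against 67.7 and 48.9 CPM in Trem2+/+ males (log2 fold change 0.07, SE 0.36, adjusted p = 0.975). Cplx1 had 365, 491, 448, 358 and 421 CPM in R47H-TREM2 males, against 377 and 432 CPM in Trem2+/+ males (log2 fold change 0.04, SE 0.20, adjusted p = 0.971). The fusion genes as a class had a median of -0.02, whereas the 4 active zone genes were all lower (median -0.48). Bsn had 216, 336, 299, 385 and 278 CPM in R47H-TREM2 males, against 315 and 513 CPM in Trem2+/+ males (log2 fold change -0.45, SE 0.36, adjusted p = 0.803). Nrxn2 had 448, 534, 537, 516 and 406 CPM in R47H-TREM2 males, against 519.7 and 488 CPM in Trem2+/+ males (log2 fold change -0.04, SE 0.25, adjusted p = 0.975).

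Several postsynaptic members of males stood highest in 1 library. Camk2a had 2482, 2998, 2714, 7574 and 2998 CPM in R47H-TREM2 males, against 3109 and 4982 CPM in Trem2+/+ males (log2 fold change -0.11, SE 0.38, adjusted p = 0.963). Dlg4 had 816, 996, 906, 1557 and 909 CPM in R47H-TREM2 males, against 992 and 980.3 CPM in Trem2+/+ males (log2 fold change 0.07, SE 0.27, adjusted p = 0.967). Shank1 had 486, 696, 629, 1988 and 494 CPM in R47H-TREM2 males, against 729 and 653 CPM in Trem2+/+ males (log2 fold change 0.31, SE 0.56, adjusted p = 0.916). In each of these genes R47H-TREM2 male 4 was above all other males. Camk2b had 1218, 1620.3, 1376, 1768 and 1703 CPM in R47H-TREM2 males, against 1473 and 2376 CPM in Trem2+/+ males (log2 fold change -0.32, SE 0.28, adjusted p = 0.810). Nlgn2 had 285, 346, 339.5, 299 and 302 CPM in R47H-TREM2 males, against 333 and 430.5 CPM in Trem2+/+ males (log2 fold change -0.28, SE 0.25, adjusted p = 0.820). Baiap2 had 188, 259, 219, 185 and 244 CPM in R47H-TREM2 males, against 241 and 210.0 CPM in Trem2+/+ males (log2 fold change -0.04, SE 0.29, adjusted p = 0.980). These overlapped between the groups. Of the other presynaptic genes 24 of 35 were lower (median -0.21) and of the other postsynaptic genes 16 of 28 (median -0.08). The active zone gene Erc2 had 202 ± 38.8 CPM in R47H-TREM2 males and 320.3 ± 107 CPM in Trem2+/+ males (SD, n = 5 and 2, log2 fold change -0.66, edgeR adjusted p = 0.779). Cadps, a priming factor of dense core vesicles, had 249 ± 47.8 CPM in R47H-TREM2 males and 350.3 ± 98.98 CPM in Trem2+/+ males (log2 fold change -0.49, edgeR adjusted p = 0.779).

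**Figure D3:**
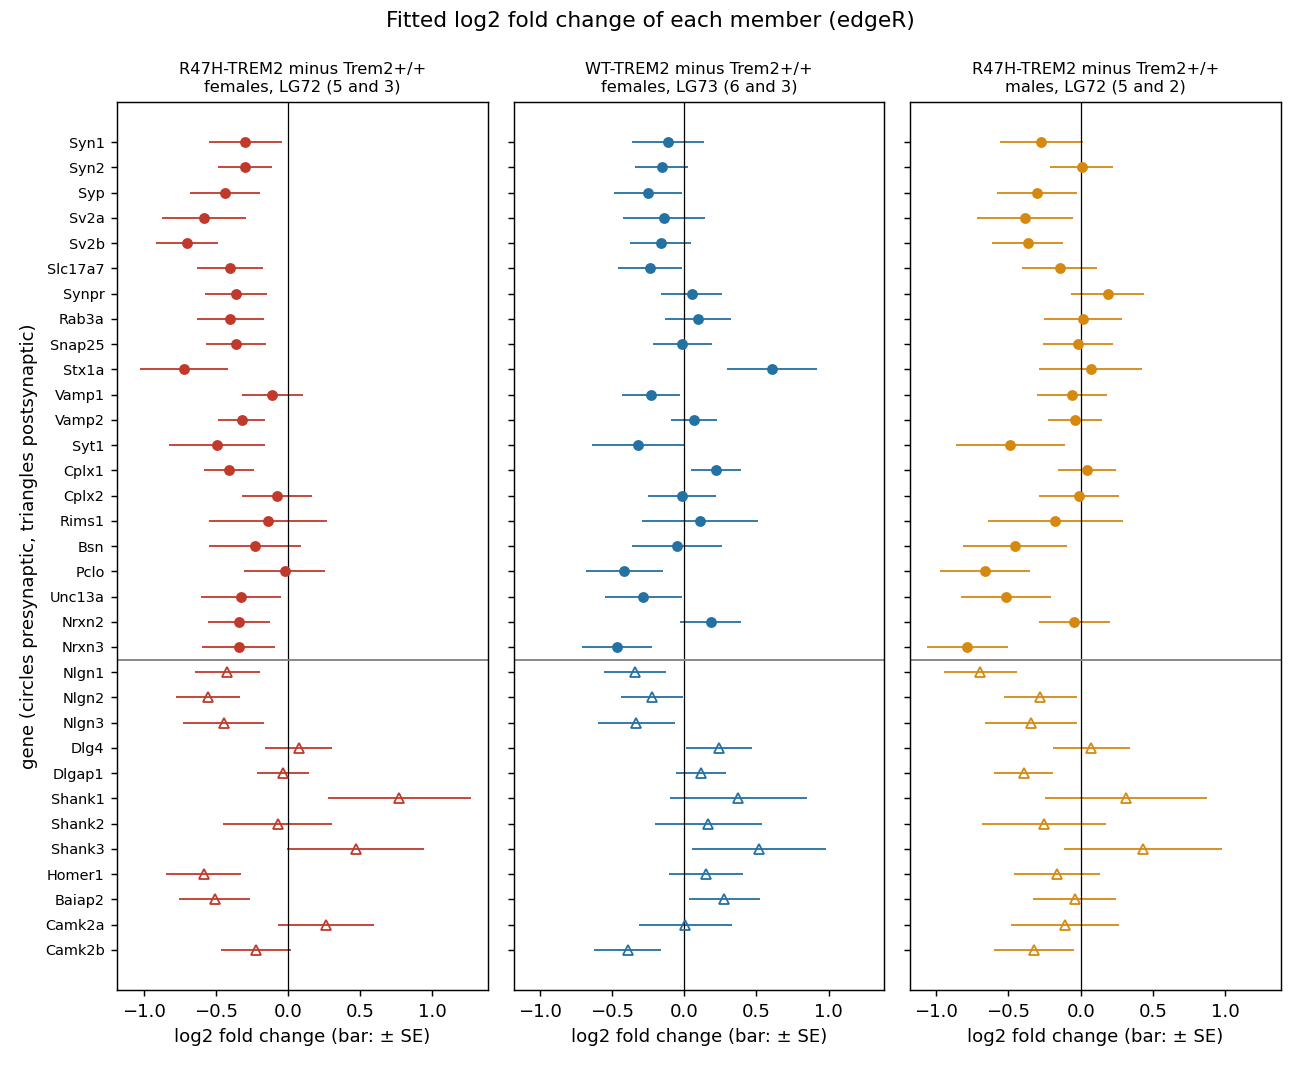
Fitted log2 fold change of each member (x axis, with SE) in the 3 genotype comparisons, circles for presynaptic and triangles for postsynaptic members. All 21 presynaptic members lay under 0 in R47H-TREM2 females, 14 did with WT-TREM2 and 16 in R47H-TREM2 males, and no member passed an adjusted p under 0.05.

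Whether the R47H allele differed from the common human allele was tested as the difference of the LG72 and the LG73 female effects. On this scale a negative value means that the R47H-TREM2 effect was the lower one. Of 33 members 27 were negative (81.8%, against 53.4% of genes tested) with a median of -0.18 (all genes -0.04). EdgeR and DESeq2 called 0 members, while edgeR called 0% of genes tested and DESeq2 called 5 positive and 8 negative of 16118. At an unadjusted p under 0.05, 3 members were negative (9.09%, against 3.61% of genes tested negative, 5.44% positive and 9.05% in either direction). Stx1a had the smallest p, with a difference of log2 fold changes of -1.33 (SE 0.44, edgeR adjusted p = 0.358). Mean Stx1a was 80.019 CPM in R47H-TREM2 females and 131.87 CPM in LG72 Trem2+/+ females. It was 99.63 CPM in WT-TREM2 females and 65.37 CPM in LG73 Trem2+/+ females. The Trem2+/+ groups were thus further apart than the groups with a human allele, and the Stx1a difference rested in large part on these controls. Leaving out Trem2+/+ female 3 of LG72 moved the Stx1a difference to -0.80, and leaving out the 6 libraries with other tissue to -0.66. Cplx1 had a difference of -0.63 (SE 0.25, adjusted p = 0.447) and Baiap2 one of -0.79 (SE 0.35, adjusted p = 0.503). The Baiap2 difference was -0.41 without Trem2+/+ female 3 of LG72. Without the 6 libraries the median over members was -0.23 (all genes 0.05), and with the length and GC covariates it was -0.02, with 18 of 33 negative. Of other presynaptic genes 27 of 35 and of other postsynaptic genes 19 of 28 were negative. The smallest p of these were those of the vesicle calcium sensors Doc2a, with a difference of -1.30 (SE 0.45, adjusted p = 0.377), and Syt5, with -0.89 (SE 0.35, adjusted p = 0.447). The same contrast gave the striatal list a median of -3.20 and the choroid plexus list one of 3.87. It was positive in 12 of 12 microglial markers (median 0.66), 8 of 10 astrocyte markers (median 0.32) and 10 of 10 oligodendrocyte markers (median 0.86). The neuronal list was negative in 13 of 18, with a median of -0.35 that lay further below 0 than that of the members. The hippocampal list was negative in 6 of 12 (median 0.24). The part of these tissues and cell types was not tested.

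The sexes of LG72 were compared in the same way, as the R47H-TREM2 effect in females minus that in males. Of 33 members 20 were negative (60.6%, against 51.4% of genes tested negative and 48.6% positive), with a median of -0.07 (all genes -0.01). Single libraries turned this balance: 13 members were negative with a median of 0.04 without Trem2+/+ female 3, 16 with a median of 0.03 without R47H-TREM2 female 1, and 28 with a median of -0.27 without Trem2+/+ male 2. Vesicle genes were negative in 8 of 8 (median -0.28) and fusion genes in 7 of 7 (median -0.28), while active zone genes were positive in 4 of 4 (median 0.21). In the same contrast microglial markers were positive in 12 of 12 (median 1.25), as were all 10 astrocyte markers with a median of 0.61 and 9 of 10 oligodendrocyte markers with one of 0.35, while striatal markers were negative in 8 of 8 (median -1.66) and choroid plexus markers in 9 of 10 (median -0.65). The neuronal list was negative in 12 of 18 (median -0.17) and the hippocampal list in 5 of 12 (median 0.41). The part of all these tissues and cell types in the synaptic values was not tested. EdgeR called 0 members (0% of genes tested), and DESeq2 called 0 members and 1 of 16118 genes, which was negative. In edgeR 0 members had an unadjusted p under 0.05 (5.34% of genes tested, 1.8% negative and 3.54% positive). The smallest p were those of Cplx1 with a difference of -0.45 (SE 0.27), Stx1a with -0.79 (SE 0.48) and Synpr with -0.55 (SE 0.33), with the same edgeR adjusted p of 0.9999 for each. Without Trem2+/+ female 3 of LG72 the Stx1a difference was -0.26, and without Trem2+/+ female 1 that of Synpr was -0.27. Among other synaptic genes, Doc2a had -1.18 (SE 0.50, adjusted p = 0.869) and Syt5 -0.74 (SE 0.39, adjusted p = 0.983).

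Presynaptic and postsynaptic members were then set against each other within each library, as the mean log2 CPM centred on each gene's mean over the 24 libraries. R47H-TREM2 females had a presynaptic mean of -0.63, -0.16, -0.00, 0.03 and -0.31, against -0.11, 0.21 and 0.36 in LG72 Trem2+/+ females. Their postsynaptic mean was -0.74, -0.15, -0.25, 0.16 and 0.12, against -0.11, -0.19 and 0.26 in LG72 Trem2+/+ females. The group means were -0.21 ± 0.27 in R47H-TREM2 females and 0.15 ± 0.24 in Trem2+/+ females on the presynaptic side, and -0.17 ± 0.36 in R47H-TREM2 females and -0.01 ± 0.24 in Trem2+/+ females on the postsynaptic side (SD, n = 5 and 3). R47H-TREM2 female 1 was the lowest of all 24 libraries on both sides. It also had a microglial mean of 1.14, an astrocyte mean of 1.15 and a neuronal mean of -0.52, and these were not tested as a source of its synaptic level.

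The presynaptic minus postsynaptic level had a mean of -0.04 in R47H-TREM2 females and 0.16 in LG72 Trem2+/+ females, a difference of -0.21. It was -0.05 in WT-TREM2 females and 0.07 in LG73 Trem2+/+ females, a difference of -0.12. In R47H-TREM2 males it was -0.03 and in Trem2+/+ males -0.02, a difference of -0.01. The pooled SD of single libraries within groups was 0.21, and none of these differences was larger. That SD is not the error of a difference between group means, and the differences were not tested. The R47H-TREM2 female difference was -0.09 without Trem2+/+ female 2 and -0.29 without Trem2+/+ female 1. It was -0.34 without the 6 libraries with other tissue. There the only control left was Trem2+/+ female 2, whose value of 0.40 was the highest of all 24 libraries. Without the 6 libraries the WT-TREM2 female difference was -0.11.

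**Figure D4:**
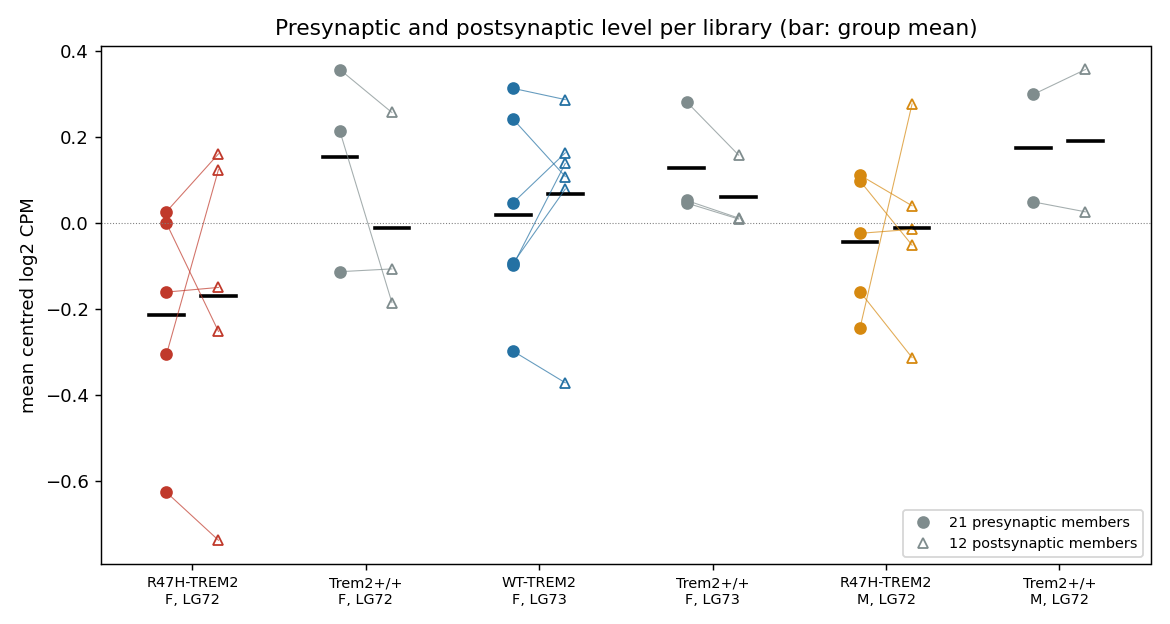
Mean centred log2 CPM of the 21 presynaptic (filled) and 12 postsynaptic (open) members in each library by group, with bars at the group means. R47H-TREM2 female 1 lay lowest on both sides, at -0.63 and -0.74, and R47H-TREM2 male 4 had the widest gap, at -0.24 presynaptic and 0.28 postsynaptic.

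The widest gaps between the sides came from single libraries. R47H-TREM2 male 4 had a presynaptic minus postsynaptic value of -0.52 and R47H-TREM2 female 5 one of -0.43, and at the other end Trem2+/+ female 2 of LG72 had 0.40. The profile of members in R47H-TREM2 male 4 and R47H-TREM2 females 4 and 5 is described here after their values were seen and without a test. These were picked as the 3 libraries with the highest Shank1, so their place in Shank1 follows from that choice. The presynaptic minus postsynaptic value of R47H-TREM2 female 4 was only -0.13. In these 3 libraries Shank1 had 1786 and 1873 CPM (R47H-TREM2 females 4 and 5) and 1988 CPM (R47H-TREM2 male 4), against 339 to 1263 CPM in the other 21. Shank3 had 752, 893 and 1117 CPM there, against 189 to 684 CPM. Shank2 had 146, 133 and 146 CPM, against 24.3 to 133 CPM in the other 21 libraries. Besides Shank1, by which they were picked, Shank2 and Shank3 were higher in these 3 libraries than in any other. For Shank2 of R47H-TREM2 female 5 this was only just so (133.45 against 133.44 CPM).

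Camk2a, Dlg4, Rims1 and Bsn lay above the median of the other 21 libraries in all 3 as well, whereas 8 presynaptic and 5 postsynaptic members lay below that median in all 3. Syt1 had 691, 451 and 454 CPM in these libraries, against a median of 976 CPM in the others. Syp had 1589, 1202 and 1256 CPM, against a median of 2128 CPM. Nlgn1 had 62.3, 50.1 and 42.9 CPM, against a median of 84.5 CPM. The 8 low presynaptic members were Syn2, Syp, Sv2a, Sv2b, Rab3a, Snap25, Syt1 and Nrxn3, and the 5 low postsynaptic ones the 3 neuroligins, Homer1 and Baiap2. By role, all 3 libraries lay above that median for 4 of 7 scaffold genes, 2 of 4 active zone genes and 1 of 2 kinase subunits. They lay below it for 5 of 8 vesicle genes, 2 of 7 fusion genes, 1 of 2 neurexins, 3 of 3 neuroligins and 2 of 7 scaffold genes. The share of all genes tested that lay above or below in all 3 was not counted. These counts can therefore not be read as particular to the members. Marker means, in the order R47H-TREM2 female 4, R47H-TREM2 female 5 and R47H-TREM2 male 4, were above 0 in all 3 for astrocytes (0.09, 0.55 and 0.19) and oligodendrocytes (0.08, 0.22 and 0.49) and below 0 in all 3 for the striatum (-0.52, -0.09 and -0.38). They differed in sign for choroid plexus (-0.43, 1.63 and 2.50), microglia (-0.53, 0.82 and -0.43) and neurons (0.08, -0.27 and -0.31). The slope of log2 CPM on transcript GC content was above 0 in all 3 (0.11, 0.09 and 0.20 per 10 percentage points). These signs were not particular to the 3 libraries. Of all 24 libraries, the astrocyte mean was above 0 in 14, the oligodendrocyte mean in 11 and the striatal mean in only 5. The GC slope was also 0.28 in WT-TREM2 female 2 and 0.19 in Trem2+/+ female 3 of LG72. The part of any of these in the profile was not tested.

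Long and short members were also compared. At or above the members' median length of 4970 bases lay 7 presynaptic and 10 postsynaptic members, so the 2 sides differ in length. The mean of long minus short members was 0.11 in R47H-TREM2 females and -0.07 in LG72 Trem2+/+ females, a difference of 0.19. It was -0.06 in WT-TREM2 females and -0.04 in LG73 Trem2+/+ females, and -0.03 in R47H-TREM2 males and 0.14 in Trem2+/+ males. The pooled SD of single libraries within groups was 0.26, larger than each of these differences, which were not tested. WT-TREM2 female 2 had the lowest value, -0.67, and the lowest slope of log2 CPM on log2 transcript length over all genes, -0.39. Trem2+/+ male 2 had the highest slope, 0.26, and a long minus short value of 0.31. With the length slope as a covariate the median over the 33 members was -0.02 in R47H-TREM2 males and -0.19 in R47H-TREM2 females. R47H-TREM2 females 4 and 5 and R47H-TREM2 male 4 had long minus short values of 0.31, 0.41 and 0.43, with slopes under 0. Of the other 21 libraries Trem2+/+ male 2 alone came close to them. These libraries were picked by Shank1, itself a long member at 9826 bases, as are Shank2 and Shank3. Their high long minus short values thus follow in part from that choice.

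**Figure D5:**
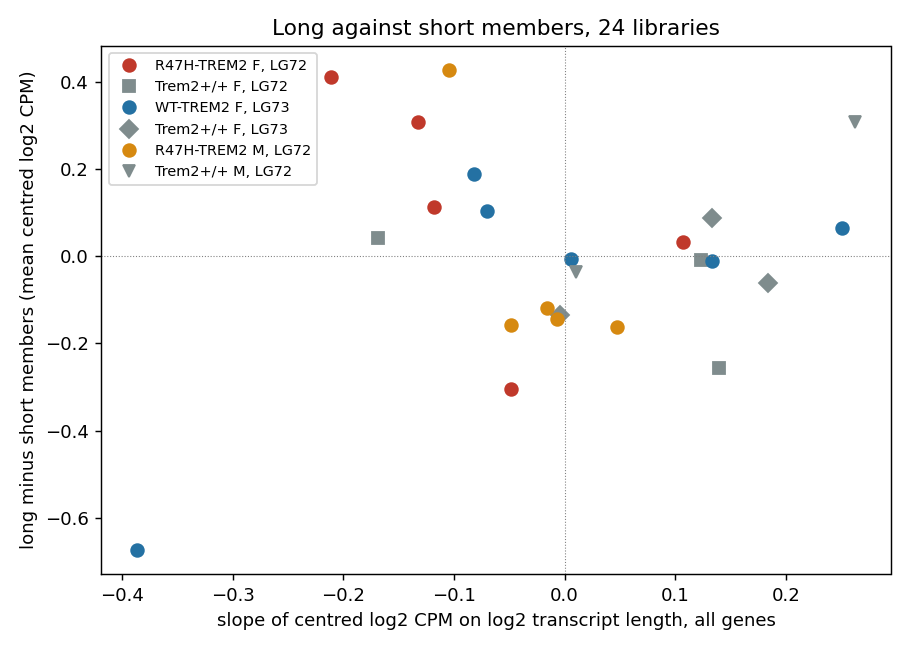
Long minus short members (y axis, mean centred log2 CPM) against each library's slope of centred log2 CPM on log2 transcript length over all genes (x axis), coloured by group. WT-TREM2 female 2 sits at the lower left (slope -0.39, difference -0.67), and R47H-TREM2 females 4 and 5 and R47H-TREM2 male 4 sit at the top with slopes under 0. The libraries at the top were picked by Shank1, itself a long member.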

How the data were processed

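The 24 libraries were made from hippocampal RNA selected with oligo(dT), per the labels' protocols. Values are whole-number read counts per gene symbol, as the authors deposited them, on GRCm38 per the submitters' processing notes. Aligner, counter, annotation and strandedness: not given in the sources used here. Reads of overlapping or antisense genes can therefore not be told apart. The table had 24058 symbols, of which 25 were turned into dates (0.353% of counts). A further 18 columns matched no sample of the series and were not used.

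Counts were filtered with filterByExpr (16118 genes left), scaled with TMM factors and fitted with the quasi-likelihood test of edgeR 4.0.16 (R 4.3.3), using 6 group means over the 24 libraries. In each of 5 comparisons the Benjamini-Hochberg adjustment ran over all genes tested, with calls at an adjusted p under 0.05. The SE of a log2 fold change is its size divided by the root of its F value. The common biological coefficient of variation was 0.318. Levels are CPM with TMM factors, and log2 CPM had a prior count of 2. Mean levels over members carry no test. Transcript length and GC content came from the longest basic transcript of GENCODE M21 (GRCm38), found for 95.3% of genes tested. Promoters came from RefSeq. The scripts were tested on simulated data.

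All 33 members could be named. Values in every library are given for the 3 members with the smallest p in each comparison and for the member with the highest CPM of each role (for the 6 WT-TREM2 females as lowest, median and highest), and those of some others were added after their values were seen. Of other synaptic genes the 2 with the smallest p were named in each comparison. Members, role classes and marker lists were chosen with earlier results of these data known. Alternatives were size factors of DESeq2, the Wald test of DESeq2 1.42.0, no filter, the compared groups alone, pooled Trem2+/+ females, a length covariate, another prior count, medians in place of means and leaving out each library in turn. Leaving out the 6 libraries with other tissue (over 30 CPM of Adora2a, or over 50 CPM of Omp or of Prl), the split at an Alb of 30 CPM, the length and GC covariates and the profile of 3 libraries were chosen after the data were seen. No 2 libraries of a group were alike within counting noise (smallest chi-square per degree of freedom 10.7).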

Additional observations from a re-analysis of the deposited data

Results flagged for a closer look

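Over 111 groups of values, 14 had a library far from the others of its group by Dixon's critical value. For independent values chance flags about 1 group in 20, but these groups share libraries and correlated genes, so the count was not set against that share. R47H-TREM2 male 4 accounted for 8 of them, against the other 4 R47H-TREM2 males. It was highest in Camk2a (7574 CPM, next library 2998), Shank1 (1988 CPM, next 696), Shank3 (1117 CPM, next 385), Shank2 (146 CPM, next 87.6) and Dlg4 (1557 CPM, next 996), and lowest in Syp (1256 CPM, next 1983). Its presynaptic minus postsynaptic value was lowest at -0.52 (next -0.01) and its long minus short value highest at 0.43 (next -0.12).

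WT-TREM2 female 2, one of the libraries with striatal RNA, accounted for 4. It was highest in Vamp2 (1432 CPM, next 1013) and lowest in Shank2 (24.3 CPM, next 92.8), in the postsynaptic mean (-0.37, next 0.08) and in long minus short members (-0.67, next -0.01).

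R47H-TREM2 female 1 was lowest in Slc17a7, at 811 CPM with the next library at 1542. R47H-TREM2 male 1 was lowest in Unc13a, at 193 CPM with the next library at 225.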

How the results depend on the processing

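No member was called in any alternative, including DESeq2 and every fit without 1 library. The number of genes called over the whole table, 0 in each comparison, did move: with the Wald test of DESeq2 it was 180 in R47H-TREM2 females, 3 in R47H-TREM2 males, 13 where the 2 human alleles were compared and 1 where the sexes were. For R47H-TREM2 females it was 1 without a filter, 1 with the length covariate and 1 with the length and GC covariates. Without 1 library in turn it ranged from 0 to 7 for R47H-TREM2 females, from 0 to 48 for R47H-TREM2 males (48 without Trem2+/+ male 1), and from 0 to 1 for both the allele and the sex difference. The postsynaptic median of R47H-TREM2 males ranged from -0.43 to 0.052. The presynaptic minus postsynaptic difference of R47H-TREM2 males was 0.21 at an Alb of at most 30 CPM, where 1 library stood against 1, too few to say whether it depends on Alb. The causes were not tested. Of the other values recomputed, 628 from planned and 69 from added alternatives kept their direction and their side of the threshold or moved by less than the spread between libraries. That rule was easy to meet, since no member was called in any fit and a median near 0 could change sign within the spread. The postsynaptic median of the sex difference, 0.07, was -0.14 without Trem2+/+ male 2, and the pooled SD of postsynaptic means was 0.25. No paired analysis was possible because the labels give no replicate numbers that groups share. The lowest count of a member in any library was 406 reads, for Rims1, a counting error of 4.96%.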

Other observations

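Members were also read against the general neuronal markers, as the mean centred log2 CPM of the 33 members minus that of the 18 neuronal genes in each library. This value was -0.05 ± 0.15 in R47H-TREM2 females and 0.04 ± 0.14 in LG72 Trem2+/+ females (SD, n = 5 and 3). It was -0.07 ± 0.22 in WT-TREM2 females and 0.06 ± 0.10 in LG73 Trem2+/+ females (SD, n = 6 and 3), and 0.00 ± 0.17 in R47H-TREM2 males and 0.18 ± 0.31 in Trem2+/+ males (SD, n = 5 and 2). The differences were -0.09, -0.12 and -0.18, and the pooled SD within groups was 0.18. The lowest value of any library was -0.46, in WT-TREM2 female 2, and the highest 0.40, in Trem2+/+ male 2.

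The interneuron list, with GABA synthesis and peptide genes, was lower in 10 of 11 in R47H-TREM2 females (median log2 fold change -0.35, 0 called by edgeR and 3 lower at an unadjusted p under 0.05, against 5.35% of genes tested), higher in 9 of 11 in WT-TREM2 females (median 0.26, 0 called, 2 higher at that p, against 2.28% of genes tested) and lower in 7 of 11 in R47H-TREM2 males (median -0.05, 0 called, 0 at that p, against 6.17% of genes tested in either direction). The difference of the R47H-TREM2 and WT-TREM2 effects was negative in 10 of 11 (median -0.70, 0 called, 5 negative at that p, against 3.61% of genes tested). These libraries also differed in striatal markers, whose part was not tested.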
